A study of Oryza sativa with 6 samples.

Results

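Alcohol dehydrogenase and pyruvate decarboxylase are the enzymes of ethanol fermentation, and 4 probes for them were followed here in rice roots. The probes were chosen by the cDNA accession that names each of them on the array, and they are 4 of the 21495 rice probes. AK102799 is described in the array's annotation as rice alcohol dehydrogenase 2, AK073964 as rice alcohol dehydrogenase 1, AK101288 as maize Adh2-N and AK100433 as maize pyruvate decarboxylase pdc3. The names AK101288 and AK100433 carry are those of maize genes, so they give the nearest described relative and not a rice gene symbol. All 4 were among the 20531 probes kept after a filter on dim spots, which asked for a signal well above background on every array of at least 1 group.

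Plants make ethanol in 2 steps when respiration lacks oxygen. Pyruvate decarboxylase turns pyruvate, the end product of glycolysis, into acetaldehyde, and alcohol dehydrogenase reduces acetaldehyde to ethanol. The second step returns the NAD+ that glycolysis needs, and in cereal roots the genes of both steps are well known for induction by flooding and other low oxygen conditions.

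The tested line was 6-4, a near-isogenic rice line that carries inserts from the cultivar Kasalath in a Nipponbare background, and it was set against the japonica cultivar Nipponbare. Plants grew in 12 L pots of Andosol, a volcanic soil, either without phosphorus (P-deficient) or with a high phosphorus content (control), and RNA came from 1.6 g of whole root, where fewer cells of a type and less RNA per cell cannot be told apart. Each of the 6 arrays held both lines from 1 condition in different dyes, giving 3 arrays of P-deficient and 3 of control roots with 3 biological replicates of each line. The 6-4 RNA was in Cy5 on P-deficient replicates 1 and 3 and on control replicate 2, and in Cy3 on P-deficient replicate 2 and on control replicates 1 and 3. One line represents the Kasalath inserts. Counted in each group by itself, 13 of 15 probes for root markers were well above background on all 3 arrays. So were 30 to 33 of 38 probes for leaf genes, depending on the group.

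Replicate 2 of both conditions stood apart in Cy3. The median of 162 negative control spots, which match no rice gene, read 501 in Cy3 on P-deficient replicate 2 and 579 on control replicate 2, against 61.6 to 198 on the other 4 arrays. In Cy5 that median was between 67.6 and 70.9 on all 6 arrays. These are also the only arrays with their dye order in their condition. A difference between the lines that depends on phosphorus and an excess of Cy3 signal on replicate 2 therefore give the same pattern and cannot be told apart in the fit, where each condition has its own line ratio and the dye has 1 term. Over all probes, 4034 of 20525 (19.7%) were called for a difference of the line ratio between conditions, and 0 were called by limma without control replicate 2 (4100 at an unadjusted p under 0.05).

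The 4 probes differed in how far they stood above these negative controls. AK102799 was the brightest against them, at 3.23 to 82.2 times the median negative control of its channel. AK073964 lay between 2.05 and 21.9 times and AK101288 between 1.76 and 22 times. In Cy3 on replicate 2, AK073964 was 2.05 times the negative controls in the 6-4 channel of P-deficient roots and 2.07 times in the Nipponbare channel of control roots, and AK101288 1.76 and 1.94 times. AK100433 was at 0.984 to 1.62 times in every channel. It was well above its local background in 7 of 12 channels, while the other 3 probes were so in 12 of 12. The median local background in Cy3 was 103 on P-deficient replicate 2 and 114 on control replicate 2, well under the negative controls there, so "well above background" there includes signal that the negative controls also had.

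**Figure D1:**
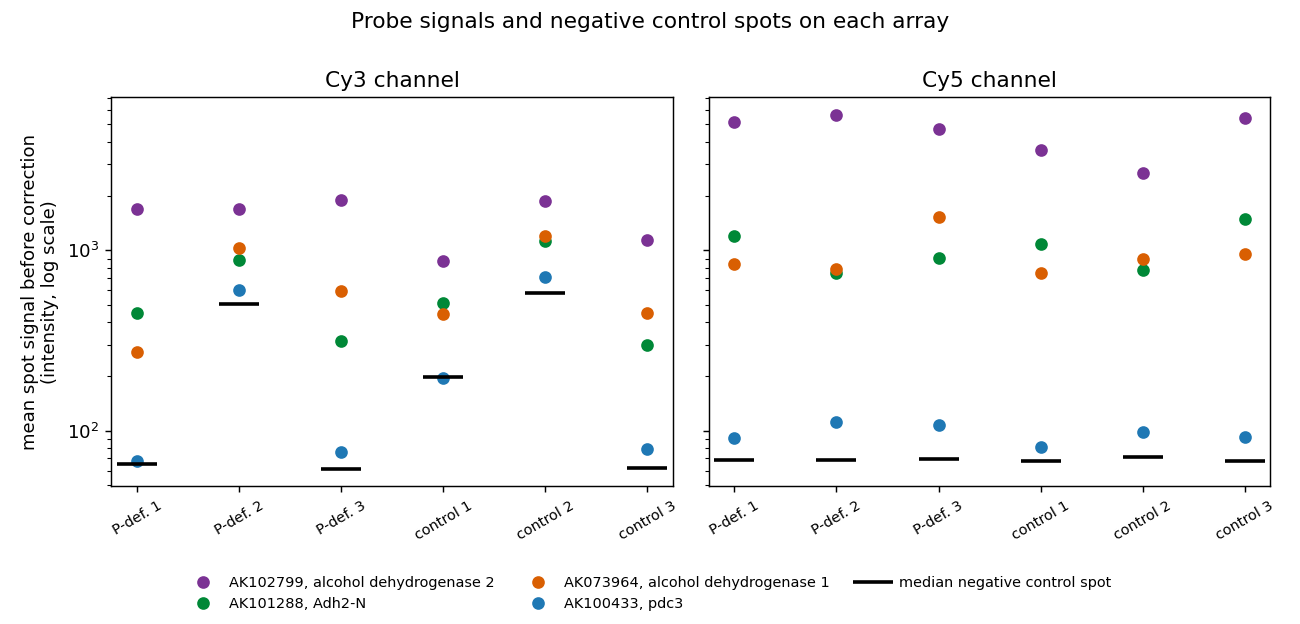
Mean spot signal before any correction (intensity, log scale) of the 4 probes on each array, with the Cy3 channel on the left, the Cy5 channel on the right and black bars at the median negative control spot. In Cy3 the bar stands at 501 on P-deficient replicate 2 and 579 on control replicate 2, close under AK100433 and not far under AK073964 and AK101288.

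AK102799, alcohol dehydrogenase 2, was lower in 6-4 than in Nipponbare roots on all 6 arrays. Its log2 ratio of 6-4 over Nipponbare was -0.27, -0.66 and -0.16 on P-deficient replicates 1, 2 and 3. On control replicates 1, 2 and 3 the ratio was -0.87, -0.32 and -0.89. No array had the 2 lines level or reversed, and 2.87% of the 20054 probes compared were lower in 6-4 on all 6 arrays. The ratio followed the dye order: with 6-4 in Cy3 it was between -0.89 and -0.66, and with 6-4 in Cy5 between -0.32 and -0.16. The fitted dye coefficient was 0.25 on the log2 scale, against a median size of 0.13 over all probes. After that term the mean of both conditions was -0.53 (SE 0.047, 95% interval -0.64 to -0.42, limma adjusted p = 0.00909), which is 1.44-fold lower in 6-4. AK102799 was the 1 of the 4 probes called in the mean of both conditions, where 190 of 20525 probes (0.926%) were called and 0.663% were called lower. The value stayed between -0.55 and -0.50 in all 16 alternatives, but the call was lost in 8 of them, among them without any 1 of the P-deficient arrays or control replicate 2 (adjusted p = 0.0729 to 0.0754) and without the dye term (adjusted p = 0.192).

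By condition, the fitted log2 ratio of AK102799 was -0.45 in P-deficient roots (SE 0.069, adjusted p = 0.0224) and -0.61 in control roots (SE 0.069, adjusted p = 0.0151), both called lower in 6-4. The first call was lost in 10 and the second in 5 of 15 alternatives, and without control replicate 2 neither passed (adjusted p = 0.0516 and 0.25). The difference between these, P-deficient minus control, was 0.16 (95% interval -0.08 to 0.40, adjusted p = 0.311) and was not called. On P-deficient replicates 1 and 3 the mean ratio was -0.21, and on control replicates 1 and 3 it was -0.88. Those 4 arrays have opposite dye orders in the conditions, so their means hold the dye effect as well.

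The normalized level of AK102799 was the lowest in control roots of 6-4. Levels are log2 intensities scaled between arrays, and they may be compared between groups for 1 probe but not between probes. In 6-4 it was 11.78, 11.21 and 11.01 in P-deficient replicates 1, 2 and 3, against 10.50, 10.61 and 10.58 in control replicates. In Nipponbare it was 12.05, 11.87 and 11.17 in P-deficient replicates, against 11.37, 10.93 and 11.47 in control replicates. The 3 P-deficient arrays lay above the 3 control arrays in 6-4 (a pattern shown by 8.11% of probes) and in the mean of both lines (7.39% of probes), and the groups overlapped in Nipponbare. From high to low the group means were 11.70 ± 0.47 in P-deficient Nipponbare, 11.33 ± 0.40 in P-deficient 6-4, 11.26 ± 0.29 in control Nipponbare and 10.56 ± 0.06 in control 6-4 (SD, n = 3 each). Neighbours among the first 3 groups differed by less than their SD. Control 6-4 did not overlap with any other group, and the share of all probes with such a gap was not counted.

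**Figure D2:**
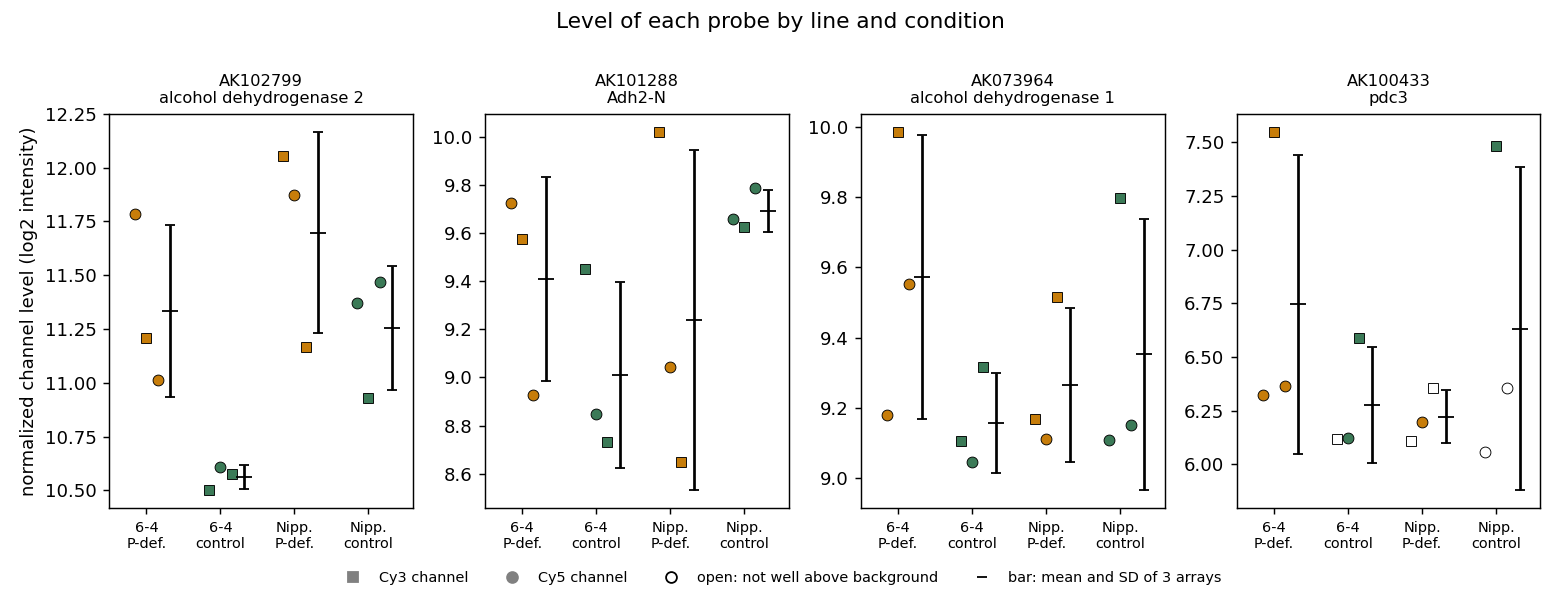
Normalized level (log2 intensity, a scale of its own for each probe) in each channel by line and condition, with squares for Cy3, circles for Cy5, open marks for channels not well above background, and a bar for the mean and SD of 3 arrays. AK102799 in control roots of 6-4 sits at 10.50 to 10.61, below every other group, a gap whose share over all probes was not counted. For AK073964 and AK100433 the highest marks are Cy3 squares from replicate 2 (9.99 and 9.80, 7.55 and 7.48).

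None of the 4 probes was called for a response to P deficiency in the mean of both lines, where 309 of 20530 probes were called (1.51%). AK102799 was higher by 0.61 in P-deficient roots, as a mean of both lines (95% interval 0.14 to 1.08, limma adjusted p = 0.292), and was the 1 of the 4 with an unadjusted p under 0.05, as 10.9% of all probes were. AK073964 was at 0.16, AK101288 at -0.03 and AK100433 at 0.03. None was called within 6-4 either, where 1.42% of probes were, nor within Nipponbare, where 0.873% were, with 3 and 2 of the 4 under an unadjusted p of 0.05, against 16.3% and 15.3% of all probes. In 6-4 the response of AK102799 was 0.69 (SE 0.20, adjusted p = 0.130) and in Nipponbare 0.53 (SE 0.20, adjusted p = 0.241). Same-numbered arrays of the conditions deviated together in mean level, though not in line ratio. With the replicate number as a block AK102799 passed in 6-4 (adjusted p = 0.0348) and not in Nipponbare (adjusted p = 0.0893). The block raised the share of all probes called in 6-4 to 14.8% and in Nipponbare to 12.1%. With it AK073964 was called higher in P-deficient 6-4 roots (adjusted p = 0.00916). AK100433 was called higher there (adjusted p = 0.0057) and lower in P-deficient Nipponbare roots (adjusted p = 0.0106). But AK100433 was kept only through P-deficient 6-4, the group where it read highest. Its calls add nothing here, nor does its place among the probes under an unadjusted p of 0.05 in each line. AK101288 stayed uncalled in each line. These within-line responses use the same channels as the line ratios, so the Cy3 values of replicate 2 enter them too.

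AK073964, alcohol dehydrogenase 1, had ratios near 0 on 4 arrays and large ratios of opposite sign on the other 2. Its log2 ratio of 6-4 over Nipponbare was 0.01, 0.87 and 0.04 on P-deficient replicates 1, 2 and 3, against -0.01, -0.75 and 0.17 on control replicates. Both large values are on replicate 2, and on both the higher line was the one in Cy3. Without replicate 2 the mean ratio was 0.02 in P-deficient roots and 0.08 in control roots. The fit gave 0.45 in P-deficient roots (adjusted p = 0.0224) and -0.34 in control roots (adjusted p = 0.0318), with a dye coefficient of -0.42. The P-deficient call was lost in 10 and the control call in 11 of 15 alternatives. The difference of 0.78 (SE 0.10, adjusted p = 0.00691) was called, but not without P-deficient replicate 2 (adjusted p = 0.0606) or control replicate 2 (adjusted p = 0.0922). In the mean of both conditions the ratio was 0.06 (95% interval -0.06 to 0.17, adjusted p = 0.579).

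Levels of AK073964 overlapped between all 4 groups. They were 9.18, 9.99 and 9.55 in P-deficient 6-4 and 9.10, 9.05 and 9.32 in control 6-4, for replicates 1, 2 and 3. In Nipponbare they were 9.17, 9.11 and 9.51 in P-deficient roots and 9.11, 9.80 and 9.15 in control roots. The group means ran from 9.57 ± 0.40 in P-deficient 6-4 through 9.35 ± 0.39 in control Nipponbare and 9.26 ± 0.22 in P-deficient Nipponbare to 9.16 ± 0.14 in control 6-4 (SD, n = 3 each), and no neighbours in that order differed beyond their SD. A further probe described as alcohol dehydrogenase 1, AK069330, had fitted ratios of 0.08 in P-deficient roots and -0.16 in control roots and was called in neither.

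AK100433, pdc3, read at most 1.62 times the negative controls in any channel, so its ratios are those of a spot near background. Its log2 ratio of 6-4 over Nipponbare was 0.21, 1.35 and 0.01 on P-deficient replicates 1, 2 and 3, against 0.06, -1.36 and 0.23 on control replicates. As with AK073964, both large values are on replicate 2 and turn to the line in Cy3. Without replicate 2 the mean ratio was 0.11 in P-deficient roots and 0.15 in control roots, but these depend on the background correction. In the deposited ratios P-deficient replicates 1 and 3 read 0.42 and 0.56, and control replicates 1 and 3 read -0.72 and 0.78. The fit gave 0.75 in P-deficient roots (adjusted p = 0.0151), -0.58 in control roots (adjusted p = 0.0186) and a difference of 1.34 (SE 0.12, adjusted p = 0.00532), with a dye coefficient of -0.69. The difference was not called without control replicate 2 (1.20, adjusted p = 0.0784), and over the alternatives it ran from 0.47 with no background correction (adjusted p = 0.174) to 2.62 with the deposited ratios. AK100433 was well above background in 3 of 3 arrays in P-deficient 6-4 and 2 of 3 in control 6-4, against 1 of 3 in each condition in Nipponbare, the 1 being replicate 2. It passed the filter on dim spots only through P-deficient 6-4. Levels in the 4 groups overlapped, with means from 6.75 ± 0.70 in P-deficient 6-4 and 6.63 ± 0.75 in control Nipponbare to 6.28 ± 0.27 in control 6-4 and 6.22 ± 0.12 in P-deficient Nipponbare (SD, n = 3 each).

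AK101288, Adh2-N, was lower in 6-4 on all 3 control arrays and mixed on the P-deficient ones. Its log2 ratio of 6-4 over Nipponbare was -0.30, 0.53 and 0.28 on P-deficient replicates 1, 2 and 3, against -0.21, -0.78 and -1.06 on control replicates. The 2 groups of arrays overlapped, and the highest ratio was on P-deficient replicate 2 but the lowest on control replicate 3. The fit gave 0.23 in P-deficient roots (adjusted p = 0.447) and -0.74 in control roots (SE 0.19, adjusted p = 0.0487), a call lost in 10 of 15 alternatives. The difference of 0.97 (SE 0.27, 95% interval 0.31 to 1.62, adjusted p = 0.0514) was not called, but with the replicate block it was (adjusted p = 0.0476), as in 4 of the other 14 alternatives. The mean of both conditions was -0.26 (95% interval -0.56 to 0.05, adjusted p = 0.361). Without replicate 2 the mean ratio was -0.01 in P-deficient roots and -0.63 in control roots.

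Levels of AK101288 were 9.72, 9.57 and 8.93 in P-deficient 6-4 and 9.45, 8.85 and 8.73 in control 6-4, for replicates 1, 2 and 3. In Nipponbare they were 10.02, 9.05 and 8.65 in P-deficient roots and 9.66, 9.63 and 9.79 in control roots. The spread over the 3 control Nipponbare arrays was small, and control 6-4 lay below it without overlap. The share of all probes with such a gap between the lines was not counted. The group means were 9.69 ± 0.09 in control Nipponbare, 9.41 ± 0.42 in P-deficient 6-4, 9.24 ± 0.71 in P-deficient Nipponbare and 9.01 ± 0.39 in control 6-4 (SD, n = 3 each), and neighbours in that order differed by less than the larger of their SDs.

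**Figure D3:**
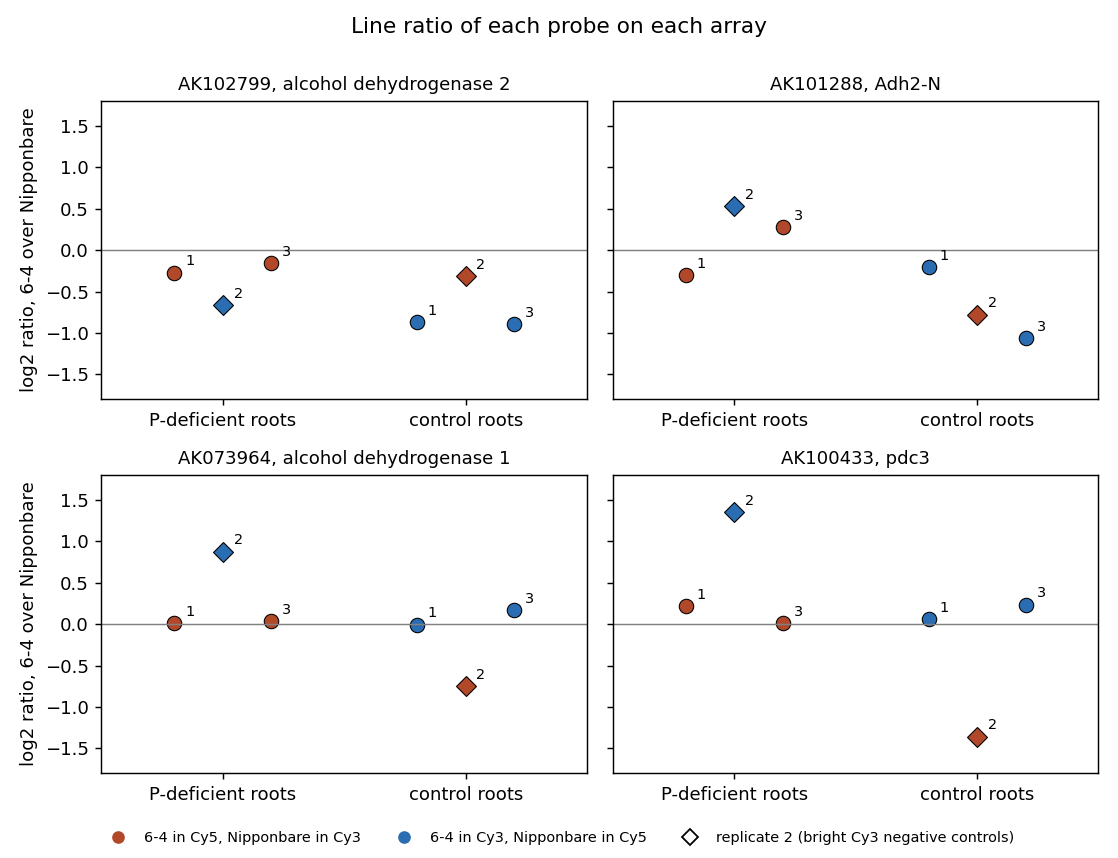
Log2 ratio of 6-4 over Nipponbare for each of the 4 probes on each array, P-deficient roots left and control roots right, numbered by replicate, coloured by dye order and with diamonds for replicate 2. AK102799 lies below 0 on all 6 arrays, while AK073964 and AK100433 lie between -0.01 and 0.23 on the circles and move to opposite sides on the diamonds (0.87 and -0.75, 1.35 and -1.36).

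Set side by side, AK102799, AK073964 and AK101288 were called lower in 6-4 under control, where 12.9% of probes were called and 6.19% were called lower. AK100433 was called lower there too, but it read near background and was kept only through P-deficient 6-4, so its call adds nothing. On control replicates 1 and 3, AK073964 read -0.01 and 0.17 and AK100433 0.06 and 0.23, so their control values below 0 rest on replicate 2. In P-deficient roots AK102799 was called lower and AK073964 higher, where 8.94% of probes were called, 4.62% lower and 4.32% higher. AK100433 was called higher there too, but it was kept only through P-deficient 6-4, the group where it read highest, so that its call adds nothing to these counts. For the difference between conditions AK073964 was called higher, where 19.7% of probes were called and 9.39% higher. AK100433 was called higher for the difference as well, but for the same reason its call adds nothing. With control replicate 2 left out, 2 probes of 20436 were called under control and none of the 4 was among them. The pattern of AK073964 and AK100433, more than 0.5 on the log2 scale higher in Cy3 on replicate 2 of both conditions and within 0.5 of 0 on the other 4 arrays, was shared by 800 of 20054 probes (3.99%). Without the condition on the other 4 arrays it held for 1170 (5.83%), and 1180 (5.88%) were that much higher in Cy5. This limit was chosen after the values had been seen.

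Over the 12 channels, with the mean of each dye removed, AK073964 and AK100433 were the most alike of the 4 probes (Pearson r = 0.87), followed by AK101288 with AK102799 (r = 0.55). The other 4 pairs lay between -0.06 and 0.13. The points are channels of 6 shared arrays, and the r is a description. Among 8215 other described probes, the most like AK073964 were AK103637, described as MtN4 of Medicago (r = 0.97), AK067009, a putative NADPH oxidase (r = 0.95), and AK061985, a putative amino acid aminotransferase (r = 0.93). On replicate 2 these 3 had line ratios of 0.92 to 1.74 in P-deficient and -1.56 to -0.85 in control roots, and of -0.16 to 0.12 on the other 4 arrays. The most like AK100433 were AK111304 (r = 0.98), AK062535 (r = 0.98) and AK069565, described as UMP synthase (r = 0.97), with ratios of 1.08 to 1.70, -1.42 to -1.12 and -0.18 to 0.32 on the same arrays. The most like AK102799 were AK071708 (r = 0.94), the glucosyltransferase AK105785 (r = 0.93) and AK102329, described as a rice beta-glucanase (r = 0.92). For AK101288 they were the chitinase AK059767 (r = 0.89), AK059620 (r = 0.85) and AK110181 (r = 0.84).

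None of the other probes for ethanol fermentation enzymes was called between the lines. The list holds 13 probes, the 4 above and 9 more. In the mean of both conditions the 9 had values between -0.38 and -0.04, all below 0 as were 48.6% of all probes, with adjusted p between 0.149 and 0.821 in limma and 7 of 9 under an unadjusted p of 0.05, against 17.1% of all probes. The median of the 13 was -0.17, against 0.003 over all probes tested. The lowest of the 9 were AK061007, a putative alcohol dehydrogenase named after Arabidopsis (-0.38), and AK100678, rice pyruvate decarboxylase 1 (-0.35). Rice pyruvate decarboxylase 2, AK101594, was at -0.17, and AK105237, named after maize Adh1-S, at -0.17 too. None of these 9 was called in P-deficient roots, in control roots or for their difference (4, 3 and 1 at an unadjusted p under 0.05 in limma, against 30.4%, 30.8% and 34.1% of all probes), and none of the 13 for the response to P deficiency, where AK100678 had 0.48 in the mean of both lines (SE 0.44). Alcohol dehydrogenase genes resemble each other, and how far a probe also reads its relatives was not tested.

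**Figure D4:**
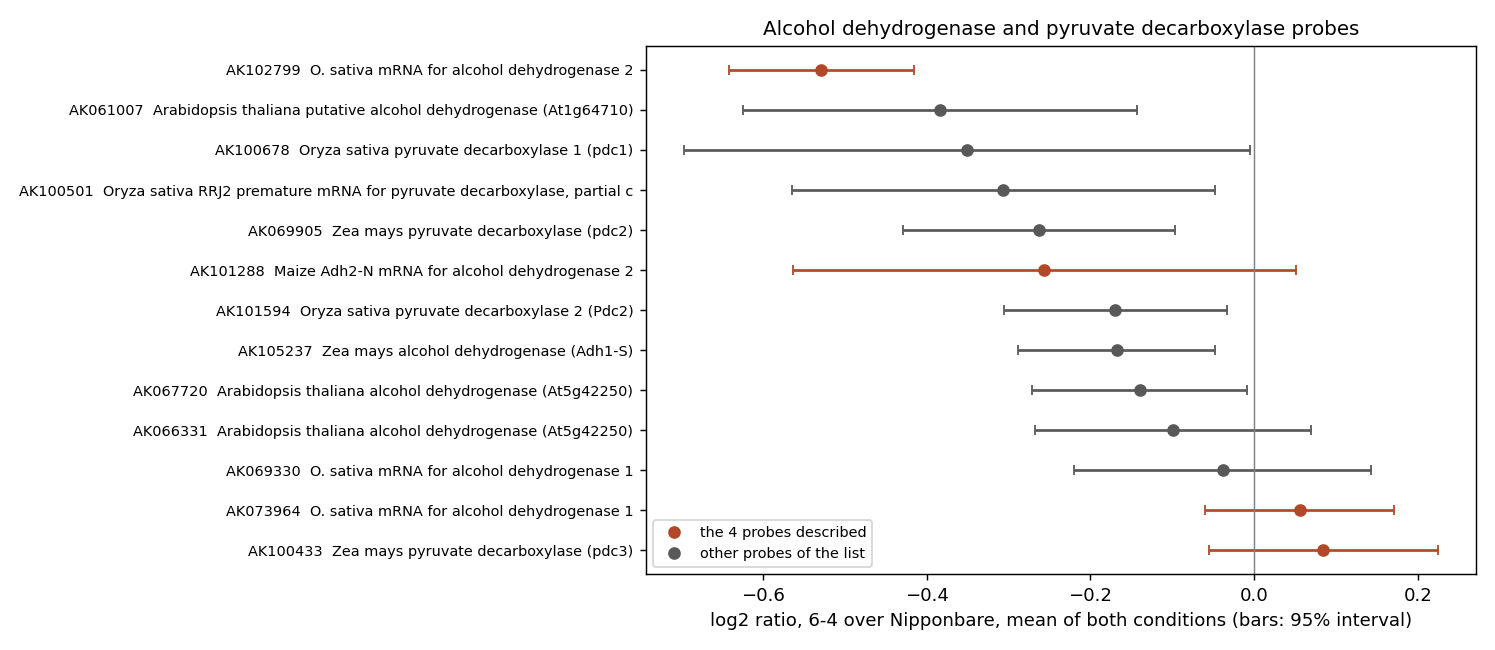
Log2 ratio of 6-4 over Nipponbare, as the mean of both conditions, for the 13 probes of alcohol dehydrogenase and pyruvate decarboxylase, with 95% intervals and the 4 probes described above in red. AK102799 is the lowest at -0.53 and the only one called, the 9 grey probes lie between -0.38 and -0.04, and AK073964 and AK100433 lie just above 0.

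Other genes of low oxygen metabolism were read from lists of related enzymes. Of 15 probes for lactate and aldehyde dehydrogenases, 1 was called lower in 6-4 in the mean of both conditions and none higher, beside the 0.663% called lower over all probes. It was lactate dehydrogenase, AK106504, whose product makes lactate from pyruvate in the competing fermentation (-0.47, SE 0.067, adjusted p = 0.0381). Of 16 further low oxygen genes tested, 1 was called lower, an alanine aminotransferase, AK107237 (-0.55, SE 0.083, adjusted p = 0.0454). Both calls were lost in 12 of 16 alternatives. On replicates 1, 2 and 3, AK106504 read -0.40, -0.12 and -0.02 in P-deficient roots, against -0.90, -0.71 and -0.70 in control roots. AK107237 read 0.44, 0.14 and -0.11 in P-deficient roots, against -1.20, -1.10 and -1.46 in control roots. In neither gene did replicate 2 stand apart, and both were called lower in control roots only (P-deficient -0.18 and 0.13, adjusted p = 0.268 and 0.489). The difference between conditions was called for each (0.59 and 1.37, adjusted p = 0.0325 and 0.00681), as for 19.7% of all probes. That call was lost in 10 and 5 of 15 alternatives. AK106504 and AK107237 were both called higher in P-deficient roots in the mean of both lines, by 1.51 and 2.23 (adjusted p = 0.00267 and 0.00179), which none of the 13 ethanol fermentation probes was. In control roots 2 sucrose synthase probes, AK065549 and AK100306, went the other way and were called higher in 6-4 (0.47 and 0.69, limma adjusted p = 0.0223 and 0.0284). Their differences between conditions were called lower (-0.44 and -0.98). Of 41 glycolysis probes tested, 1 was called higher in 6-4 in the mean of both conditions and none lower, where 54 of 20525 probes were called higher. In control roots 1 was called higher and 2 lower, where 12.9% of all probes were called. In P-deficient roots 2 were called higher and none lower, where 8.94% of all probes were called.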

How the data were processed

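Spot intensity values in Cy3 and Cy5 (mean signal and local background median) were quantified with Agilent Feature Extraction 7.1 (replicates 1 and 2) or 8.1 (replicate 3), per the file headers, though for P-deficient replicate 2 the submitters' processing notes name 8.1. The deposited log10 ratios had local background subtracted and dyes normalized in that program, per the file headers, and served as an alternative. The deposited 0 or 1 flags for spots well above background, saturated or outlying are other values made by the same software, per the file headers. No array held values identical to another, and none of the 4 probes was saturated or flagged as an outlier.

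In R 4.3.3 with limma 3.58.1 and statmod 1.5.0, background was corrected with normexp (offset 50), and log2 ratios were normalized by loess within arrays, with control and outlier spots at weight 0. Line effects came from lmFit and eBayes on log2 6-4 over Nipponbare with 1 term per condition and a dye term (3 residual degrees of freedom before pooling over probes). The response to P was fitted on mean channel intensities after Aquantile scaling, and within lines on 12 single channels (lmscFit, intraspot correlation 0.787). All fits used the whole table, with Benjamini-Hochberg adjustment over all probes tested and a threshold of 0.05. The number of arrays limits the precision.

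Replicate numbers pair the conditions by the data: deviations of array levels from their condition's mean correlated at 0.402, 0.314 and 0.66 for replicates 1, 2 and 3 (and at 0.278 for control 2 with P-deficient 1). The response to P is therefore also given with a block where that changes its call. Deviations of the line ratios in the same pairs, which have opposite dye orders, correlated at -0.604, -0.751 and -0.371. Both arrays of replicate 3 were read with version 8.1, so pairing and software version cannot be told apart there. Further genes were named by rule: called alcohol, lactate or aldehyde dehydrogenases and pyruvate decarboxylases, the 6 smallest p among low oxygen genes, and the 3 most alike probes. The probes and lists were chosen with earlier results of these data known. No probe accession of the 4 was found in the RefSeq gene table, so the array's descriptions were kept.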

Additional observations from a re-analysis of the deposited data

Results flagged for a closer look

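The line ratio of 6-4 over Nipponbare differed between P-deficient and control roots past the threshold, in the test of the difference itself, for 17 of the genes named by the rule (log2 difference, P-deficient minus control). Among the fermentation probes these were AK073964 (0.78) and AK100433 (1.34). AK100433 passed the filter on dim spots only through P-deficient 6-4, the group where it read highest. The 3 probes most like AK073964 were AK103637 (1.65), AK067009 (1.41) and AK061985 (0.91), and the 3 most like AK100433 were AK111304 (1.56), AK062535 (1.07) and AK069565 (1.54). Being chosen by likeness, they are not separate evidence. Lactate dehydrogenase AK106504 had 0.59 and alanine aminotransferase AK107237 had 1.37. The short chain alcohol dehydrogenases AK111082 and AK073048 had -0.40 and 0.58, cinnamyl alcohol dehydrogenase AK072000 had -1.05 and allyl alcohol dehydrogenase AK070393 had -0.45. The aldehyde dehydrogenases AK109168 and AK070741 had -0.65 and -0.69, and sucrose synthase AK065549 had -0.44. The dehydrogenases outside the fermentation probes were named because they were called in some comparison, this one included. The count of 17 is therefore partly set by the choice of genes and cannot be compared with the share over all probes. Across all probes 19.7% passed this test, and none did in limma without control replicate 2, with no background correction or with no dye term.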

How the results depend on the processing

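Counts of probes called (mean line effect, control, P-deficient, difference) were 190, 2653, 1835 and 4034. They were 26, 2, 1 and 0 with no background correction, 3, 1, 1 and 0 with plain subtraction, 19, 705, 185 and 1972 with the deposited log ratios, 64, 827, 40 and 2139 with median centring, 40, 24, 13 and 0 with no dye term, and 307, 1349, 703 and 2539 with the replicate block. The software version as a term gave 1212 for P-deficient roots. Leaving out 1 array gave 21 to 840, 2 to 4240, 6 to 4478 and 0 to 6148. Called higher under control were 52.1%, against 66% with the deposited ratios and 12.5% with median centring. For the difference these shares were 47.8%, 30.5% and 75.9%, and for P-deficient roots 48.3% against 29.7% with the deposited ratios. Responses to P (mean of lines, 6-4, Nipponbare) were called for 309, 284 and 175 probes, against 126, 151 and 64 with 75th percentile scaling (80.2%, 90.7% and 79.7% higher, against 68.3%, 77.1% and 68.6%), 853, 2958 and 2431 with the replicate block, 745, 1024 and 907 with the software version as a term, and 91 to 224, 69 to 203 and 17 to 85 without 1 array. Arrays of version 7.1 alone gave 2 in 6-4 and 0 in Nipponbare.

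AK102799 kept its direction throughout. Its mean ratio was uncalled at -0.52 with plain subtraction, -0.55 with the deposited ratios, -0.53 with no dye term and -0.55 on replicates 1 and 3 alone. Without 1 array it ran from -0.55 to -0.51, uncalled in 4 of 6 fits. That setting of replicates 1 and 3 was chosen after seeing the data; it called 34 probes in the mean line effect and 15 in the mean response. In P-deficient roots AK102799 was uncalled at -0.43 with no background correction, -0.44 with plain subtraction, -0.46 with the deposited ratios, -0.50 with median centring, -0.36 with no dye term and -0.45 with the replicate block, and ran from -0.50 to -0.41 without 1 array (uncalled in 4 of 6). In control roots it was uncalled at -0.57, -0.59 and -0.69 with no background correction, plain subtraction and no dye term, and ran from -0.66 to -0.59 without 1 array (uncalled in 2 of 6).

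Calls of AK073964 were lost with no background correction (P-deficient 0.32, control -0.23, difference 0.56), plain subtraction (0.35, -0.24, 0.59) and no dye term (0.31, -0.20, 0.50), and in single conditions with the deposited ratios (0.50, -0.36), median centring (0.43, -0.31) and the replicate block (0.45, -0.34). Without 1 array they ran from 0.44 to 0.46, -0.38 to -0.29 and 0.75 to 0.82. Calls of AK100433 were lost likewise with no background correction (0.28, -0.19, 0.47), plain subtraction (0.55, -0.14, 0.69) and no dye term (0.52, -0.36, 0.88), and in single conditions with the deposited ratios (1.44, -1.18) and, in P-deficient roots, median centring (0.62). Without 1 array they ran from 0.68 to 0.86, -0.65 to -0.47 and 1.20 to 1.47. AK101288 under control was uncalled at -0.61, -0.67, -0.81, -0.76, -0.68 and -0.74 with no background correction, plain subtraction, deposited ratios, median centring, no dye term and the version term, and ran from -0.92 to -0.49 without 1 array (uncalled in 4 of 6). Its difference was called at 0.97 with no filter or with the replicate block, at 0.61 on version 7.1 arrays, and ran from 0.76 to 1.16 without 1 array.

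Responses in the replicate block that became called were 0.69, 0.56 and 0.70 in 6-4 for AK102799, AK073964 and AK100433, and -0.64 in Nipponbare for AK100433. Since AK100433 was kept only through P-deficient 6-4, the group where it read highest, its calls add nothing to these. Values near 0 changed sign: AK101288 in the mean response (0.20 on version 7.1 arrays, -0.30 to 0.24 without 1 array), AK100433 in the mean response (-0.17 to 0.20 without 1 array) and in the mean line effect (-0.00058 with median centring). The cause of these changes was not tested. Of 627 alternatives for 42 called results of other named genes, 347 kept the call, 280 lost it and 0 reversed. A slide or scan date block was not run, since each slide held 1 array and only some headers name a scan date. AK100433 is limited by its signal over background.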
